A study of Arabidopsis thaliana with 27 samples.

Results

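A set of 10 Arabidopsis thaliana genes, out of 21509 tested, had a mean signal at 250 mM sorbitol at least 1 log2 unit above ATS media and stayed within 0.4 log2 units of it at 100, 150 and 200 mM sorbitol. ATS media is the basal plant medium without added stress, and testing was limited to genes detected well above background throughout at least 1 group of 3 arrays. Each array held RNA of whole 2-week-old wild-type seedlings of the Col-0 accession, germinated and kept on agar plates of the medium named. The 9 groups were ATS media, ATS media with NaCl at 50, 75, 100 or 125 mM, and ATS media with sorbitol at 100, 150, 200 or 250 mM, with 3 single-colour arrays in each. The study paired each NaCl dose with a sorbitol dose of equal osmolarity, 125 mM NaCl with 250 mM sorbitol, to tell ionic from osmotic effects.

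Sorbitol is a sugar alcohol that draws water from the root, whereas NaCl adds sodium and chloride ions to the same osmotic load. Seedlings on such media build up abscisic acid and switch on genes for protective proteins, and chromatin marks laid down by histone methyltransferases are among the known layers of that control. The 10 genes hold 2 with a known chromatin family. WDR5b (AT4G02730) is a WD40-repeat homolog of WDR5, a core subunit of the COMPASS-type complexes that methylate lysine 4 of histone H3. SDG21 (AT2G24740), also called SUVH8, belongs to the SU(VAR)3-9 homologs, a family related to the methyltransferases of lysine 9 of histone H3. The other 8 are given here by locus tag, with no role: AT5G27300, AT3G47540, AT1G02700, AT5G62960, AT5G61710, AT5G35375, AT5G15420 and AT2G07750.

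The genes were chosen by their mean log2 differences from ATS media at the 4 sorbitol doses, so those values are a description and carry no test. Of the 21509 genes, 1311 (6.1%) reached a rise of 1 at 250 mM sorbitol, and 954 of them lay outside the 0.4 window at all 3 lower doses. A further 286 lay outside it at 2 lower doses and 61 at 1, which left 10, or 0.0465% of the genes tested. The 1311 genes had median log2 differences from ATS media of 0.94, 1.197, 1.13 and 1.64 at 100, 150, 200 and 250 mM sorbitol. The 10 genes had medians of 0.13, 0.12, 0.12 and 1.29 at these doses. The typical gene high at 250 mM sorbitol thus lay well above ATS media at 100 mM already, whereas the rule itself kept the 10 genes near it.

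All 3 arrays of 250 mM sorbitol shared a slide that held no other group, so slide and treatment cannot be told apart at that dose. Over the 27 arrays, 70.1 to 80.8% of spots were well above background, and the arrays of a group correlated at 0.9892 to 0.9961 on average. Array 1 of 150 mM and array 1 of 200 mM sorbitol stood apart, with 470 and 335 genes at least 1 above the mean of the other arrays of their group, against 73 to 255 genes for every other array. They shared a slide, and arrays 2 and 3 of both groups lay together on another. A difference between slides and one between arrays cannot be told apart in these groups. The slide of the former also held array 1 of 100 mM sorbitol and of 125 mM NaCl. Of 14 osmotic and abscisic acid marker genes, 12 were higher and 1 was lower at 250 mM sorbitol than on ATS media (limma adjusted p under 0.01), where 36.1% of all genes were higher and 30.5% lower. RD29B, a protective protein gene induced by abscisic acid, led them with a log2 difference of 7.46. Of 20 root marker genes 4 were higher and 12 lower, of 16 shoot marker genes 0 were higher and 3 lower, of 13 flower marker genes 1 was higher and 9 lower, and of 22 seed maturation genes 11 were higher and 2 lower. In RNA of whole seedlings, a change in the share of a cell type and a change in RNA per cell cannot be told apart, and their part in the values below was not tested.

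Behind the means, the 10 genes fell into unlike cases. AT3G47540 and AT2G07750 were bright and tight on all 3 arrays of 250 mM sorbitol and all 3 of ATS media, with no mark on a spot or its background. WDR5b and AT5G62960 were bright throughout but stood high on 1 array of 250 mM sorbitol. AT5G27300 was high on all 3 arrays, and the scanner software marked each of these spots as an outlier. AT1G02700, AT5G61710, SDG21, AT5G35375 and AT5G15420 were dim, and on ATS media none of the 5 was well above background on more than 1 array. The name of the set, raised only at 250 mM sorbitol, therefore holds for the means and for the sorbitol doses only.

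**Figure D1:**
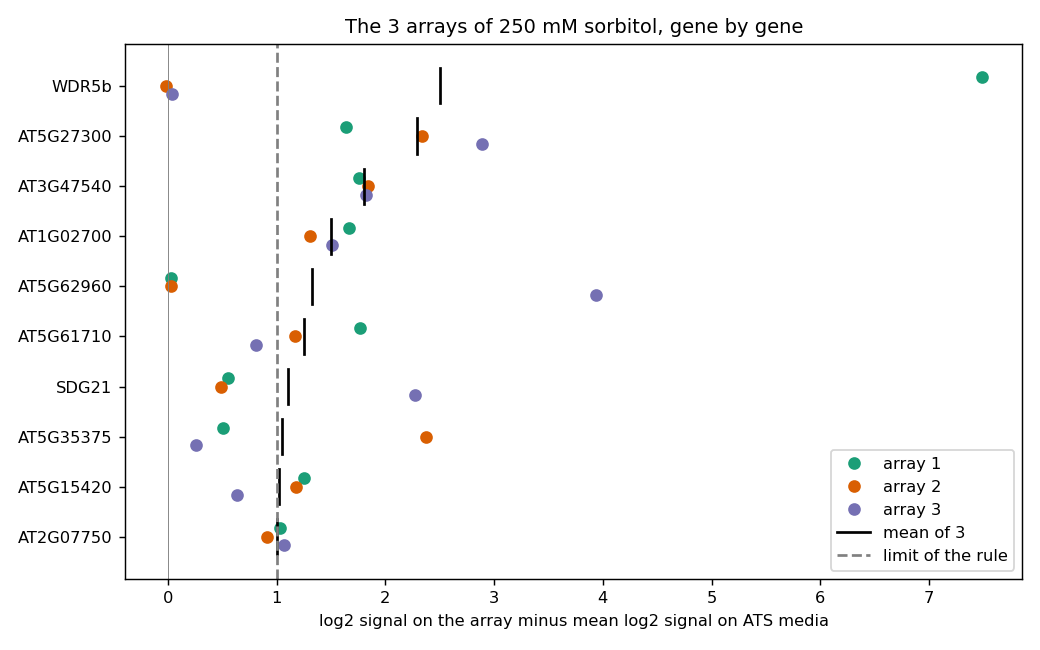
Log2 signal on each of the 3 arrays of 250 mM sorbitol minus the mean log2 signal of 3 ATS media arrays, gene by gene, with the mean as a black bar and the limit of 1 as a dashed line. WDR5b lay at 7.48 on array 1 and at -0.02 and 0.04 on arrays 2 and 3, and AT5G62960 lay at 3.94 on array 3 alone, whereas the points of AT3G47540 lay between 1.76 and 1.84.

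The cleanest rise was that of AT3G47540. Its normalized signal was 592.3, 615.2 and 626.9 on ATS media. It was 658.4, 663.9 and 618.4 at 100 mM sorbitol, 1300.8, 698.1 and 576.1 at 150 mM, 1094.1, 503.2 and 482.9 at 200 mM, and 2066.6, 2181.8 and 2159.9 at 250 mM. Every array of 250 mM sorbitol was above every other array of the sorbitol series and of ATS media. The mean difference from ATS media was 1.805 log2 units, a 3.49-fold higher signal, with an SD of 0.04 at 250 mM sorbitol and 0.04 on ATS media (n = 3 each). The flat values at 150 and 200 mM, 0.40 and 0.07, averaged unlike arrays, because array 1 lay at 1.09 and 0.84 and the mean of arrays 2 and 3 at 0.05 and -0.31. These are the 2 arrays that stood apart over all genes, and they lay on another slide than arrays 2 and 3 of their groups. At 150 mM sorbitol the mean lay on the limit of the 0.4 window. AT3G47540 overlaps AT3G07775 in the annotation, and signal from either gene could not be told apart here.

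AT2G07750 rose less and was the member nearest the limit. Its signal was 289.3, 238.6 and 271.5 on ATS media, then 345.5, 358.2 and 343.7 at 100 mM sorbitol, 357.8, 258.8 and 257.3 at 150 mM, 428.6, 289.2 and 282.3 at 200 mM, and 541.1, 500.9 and 557.8 at 250 mM. The arrays of 250 mM sorbitol were above all others of the series, at 2.00-fold the ATS media mean (1.00 log2 units, SD 0.08 and 0.14, n = 3 each). At 100 mM sorbitol all 3 arrays were also above all 3 ATS media arrays, by 0.39 log2 units on average, just inside the window. Array 1 lay at 0.43 and 0.69 at 150 and 200 mM sorbitol, where arrays 2 and 3, on another slide, averaged -0.04 and 0.11.

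WDR5b owed its place to a single spot. At 250 mM sorbitol its signal was 395780.8 on array 1, the brightest of all 43803 spots on that array, and 2182.5 and 2276.1 on arrays 2 and 3. On ATS media it was 2276.1, 2232.4 and 2127.3, so arrays 2 and 3 of 250 mM sorbitol lay within the range of the controls. It ran between 1984.9 and 2190.1 at 100 mM, between 2048.1 and 2428.7 at 150 mM and between 2153.1 and 2264.3 at 200 mM sorbitol. The mean difference of 2.502 log2 units had an SD of 4.31 at 250 mM sorbitol and 0.05 on ATS media (n = 3 each), and the median array differed from the ATS media mean by 0.04. The software marked the local background of the array 1 spot as an outlier. It did not mark the spot itself. Masking marked spots alone kept WDR5b in the set, whereas masking spots with a mark on either the spot or its background, an alternative chosen after the data were seen, left 7 genes, without WDR5b, AT5G27300 and AT5G62960.

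Spots around WDR5b on that array were high as well. Within 7 rows and 2 columns of it, 7 of 73 spots (9.59%) were at least 10-fold above their mean on the other arrays of 250 mM sorbitol, against 39 of 43803 spots (0.089%) on the whole array. The spot 1 row above and 1 column to the right, which matched no gene, gave 350671.2 on array 1 and 4.9 on each of the others. AT1G80140, 2 rows below, gave 135014.0 against 17.5 and 24.3, and AAP4, an amino acid permease gene, gave 175937.0 against 5040.7 and 5216.6. In the same block, 20 of 73 spots had an outlier mark on their background and 7 on the spot. The part of this patch in the WDR5b value was not tested, and without array 1 the gene fell out of the set.

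**Figure D2:**
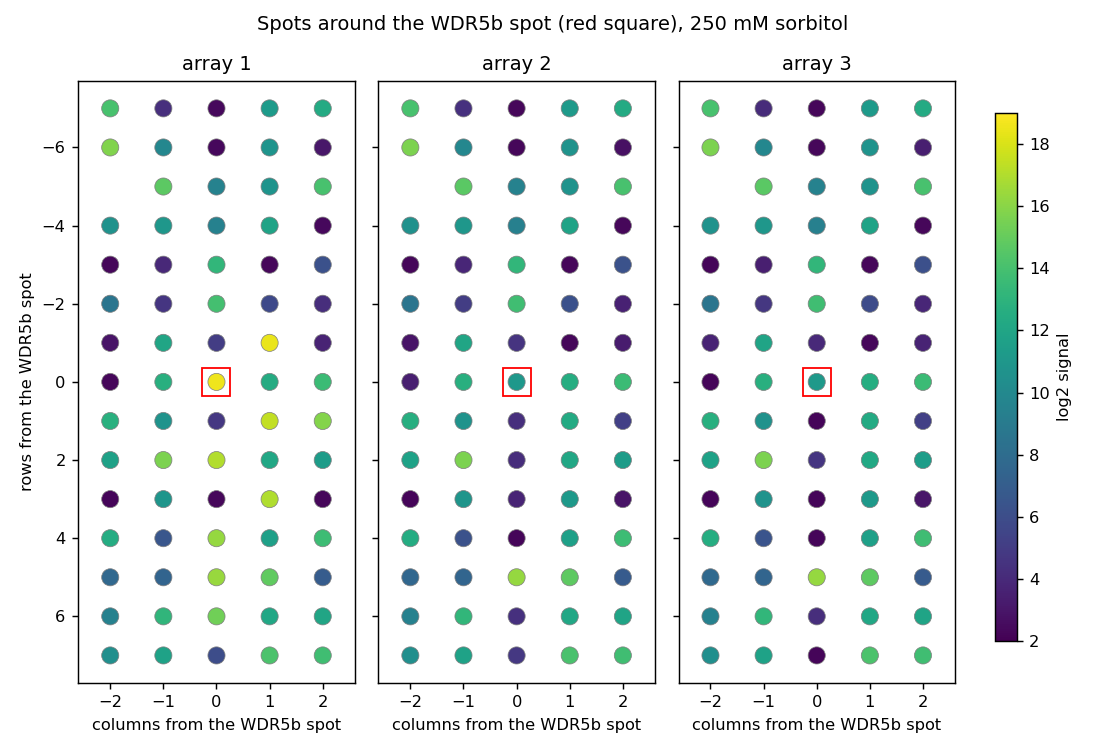
Log2 signal of the spots within 7 rows and 2 columns of the WDR5b spot (red square) on the 3 arrays of 250 mM sorbitol; axes are rows and columns away from it, colour is log2 signal, and the empty place is a control spot. On array 1 a column of bright spots runs through and below WDR5b, among them 7 neighbours at least 10-fold above arrays 2 and 3, and it is missing from both other arrays.

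AT5G62960 was likewise high on 1 array. At 250 mM sorbitol its signal was 1075.6, 1074.9 and 16160.5, and on ATS media 1039.8, 1081.2 and 1047.8. The array 3 spot was 15-fold above the others, and both the spot and its background were marked as outliers. None of the 74 spots around it (0 of 74) was 10-fold above arrays 1 and 2, against 52 of 43803 (0.119%) over array 3. Of these 74 spots, 7 had an outlier mark on their background and 1 on the spot. The array holds another probe for AT5G62960, which gave 1039.2, 1023.6 and 1087.4 at 250 mM sorbitol and 1036.0, 998.1 and 1018.9 on ATS media, a difference of 0.04 log2 units. The probes therefore disagreed on the rise, and the gene was lost from the set when marked spots were masked or when probes were averaged.

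AT5G27300 had the second largest mean rise. Its signal was 383.0, 622.0 and 915.5 at 250 mM sorbitol and 135.1, 123.6 and 112.5 on ATS media. The groups did not overlap and differed by 2.29 log2 units (SD 0.63 and 0.13, n = 3 each). All 3 spots at 250 mM sorbitol were marked as outliers, as were 1 spot at 100 mM sorbitol and 1 at 125 mM NaCl. The median pixel intensity of the same spots was 139, 322.5 and 342.5 at 250 mM sorbitol and 148, 140 and 128 on ATS media. Array 1 then lay within the ATS media range, and with normexp background correction of the median pixels, whose offset of 50 narrows differences of dim spots, the mean difference was 0.55 log2 units. AT5G27300 left the set under that correction and when marked spots were masked.

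The 5 dim genes gave values near the detection limit, which lay between 8.59 and 47.1 signal units over the 27 arrays. AT1G02700 gave 80.7, 62.9 and 72.2 at 250 mM sorbitol, all well above background, and 7.9, 34.8 and 59.7 on ATS media, where 1 array was. The groups did not overlap and differed by 1.496 log2 units. The gene left the set without any 1 of the ATS media arrays, and also without array 1 of 100 or of 150 mM sorbitol. AT5G61710 gave 49.4, 32.6 and 25.4 at 250 mM sorbitol and 10.0, 19.8 and 15.4 on ATS media, where no array was well above background, so the rise is known only as at least 1.14-fold. That bound sets the mean of the bright group against the lowest signal detected on each ATS media array, 30.2 on average. Array 3 of 250 mM sorbitol, at 25.4, lay below that average. AT5G61710 was tested only because of its arrays at 250 mM sorbitol, so the bound is a description too. Its array 1 of 200 mM sorbitol gave 52.6, more than any array of 250 mM.

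SDG21 gave 15.2, 14.6 and 50.3 at 250 mM sorbitol, with 1 array well above background, and 16.7, 4.8 and 14.2 on ATS media with 0. No bound above 1 could be given for its rise. SDG21 lies within AT2G24735 in the annotation, which limits what its probe can tell apart. AT5G35375 gave 20.8, 76.1 and 17.5 at 250 mM sorbitol and 4.3, 89.6 and 8.1 on ATS media, so the highest of these 6 values was a control. Both genes entered the tested set only through their 125 mM NaCl arrays. AT5G15420 gave 34.7, 32.9 and 22.6 at 250 mM sorbitol, all well above background, and 24.5, 28.5 and 4.4 on ATS media, where its groups overlapped.

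**Figure D3:**
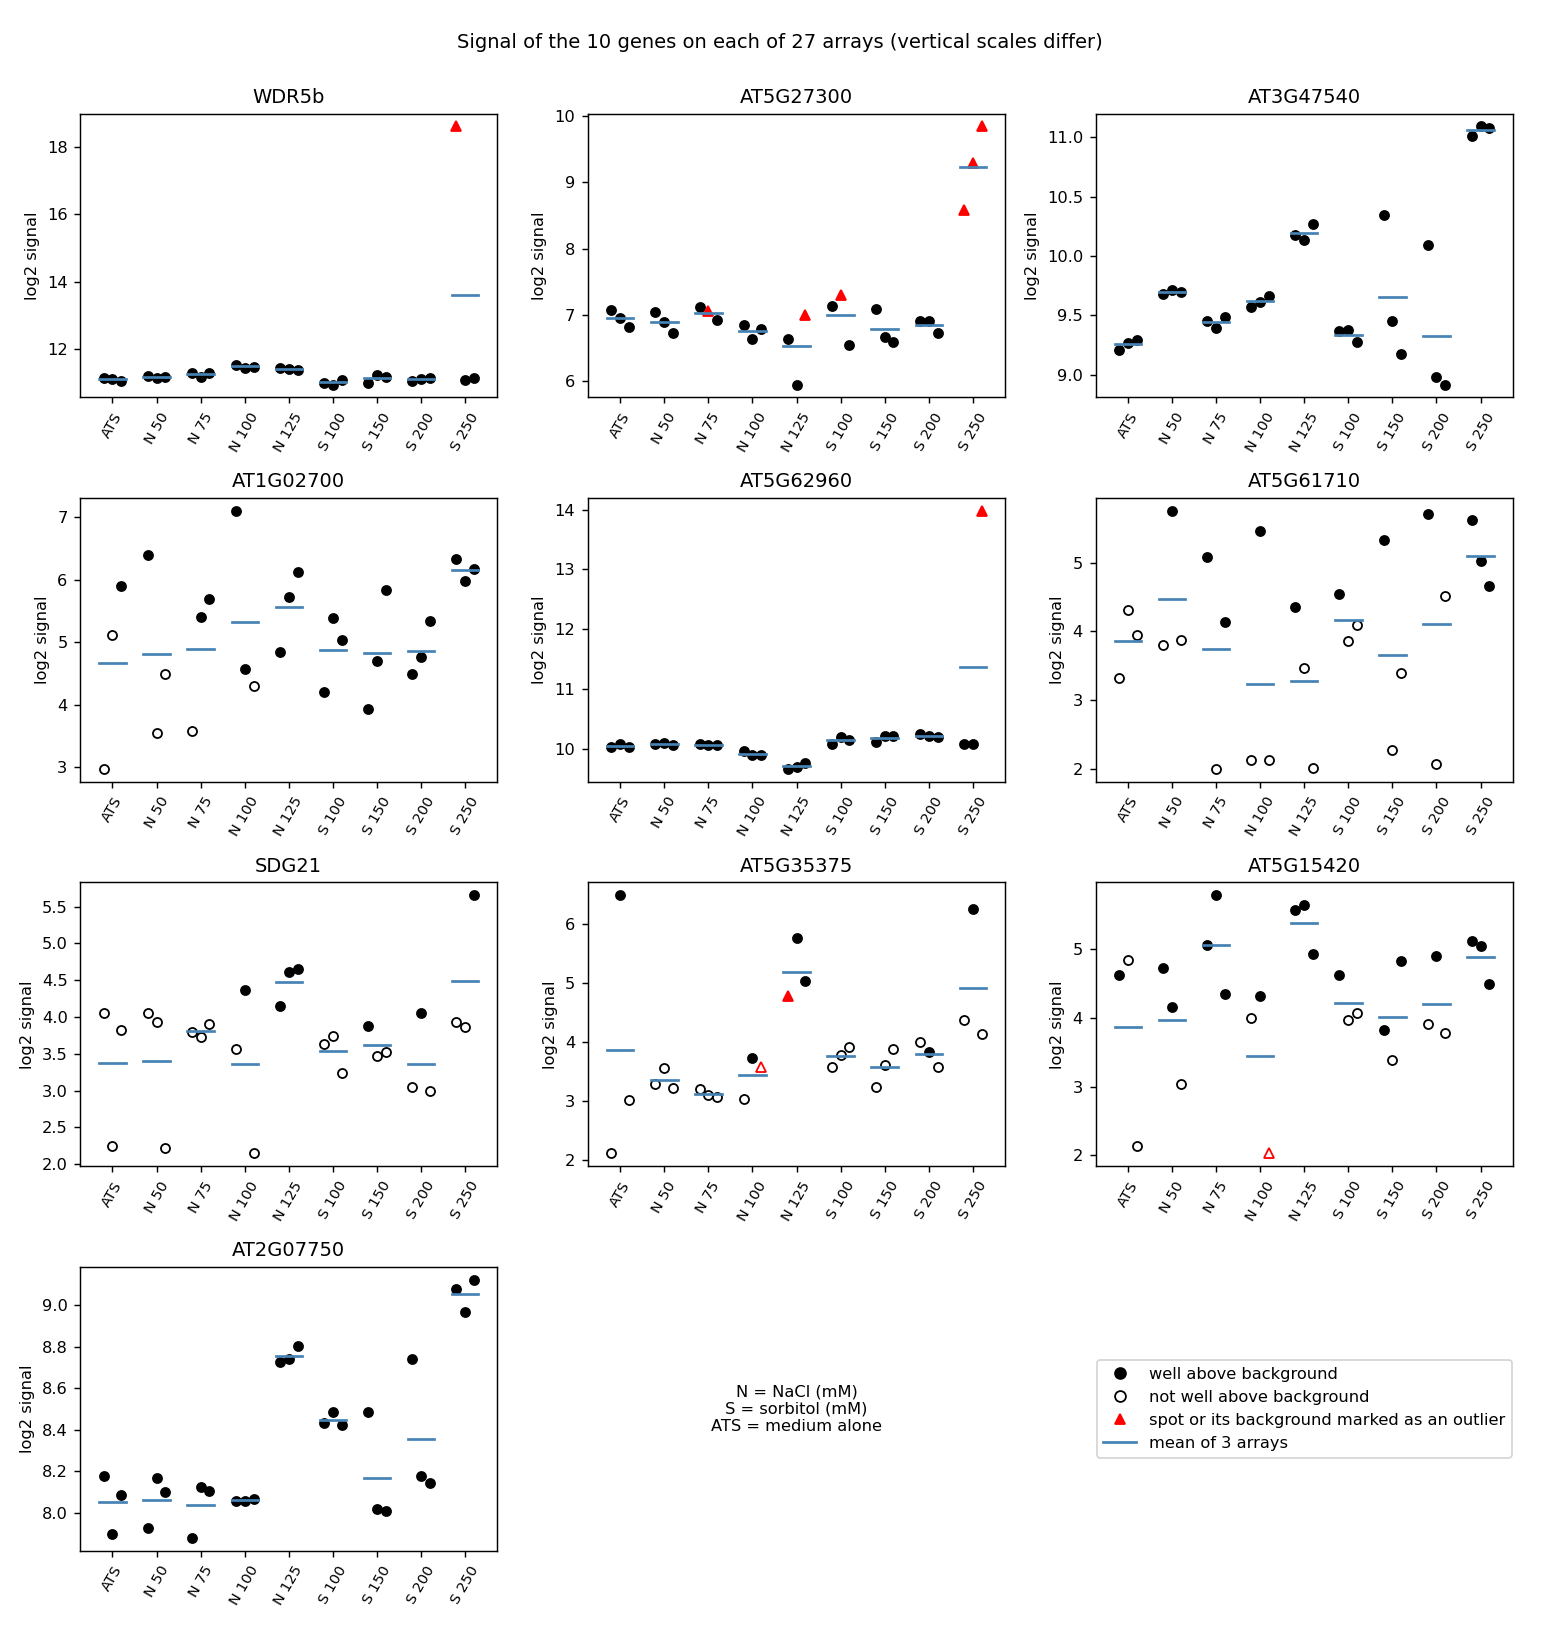
Log2 normalized signal of the 10 genes on each of 27 arrays, in dose order from ATS media through NaCl (N) to sorbitol (S); filled points are well above background, open points are not, red triangles carry an outlier mark on the spot or its background, and blue bars are means of 3 arrays. Only AT3G47540 and AT2G07750 combine filled, unmarked points on all 27 arrays with 3 tight values at 250 mM sorbitol (SD 0.04 and 0.08 log2 units).

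Spread and marks were more common among the 10 genes than among the genes they were drawn from. The 3 arrays of 250 mM sorbitol spanned 1 log2 unit or more for 5 of the 10 genes (50.0%) and for 64 of the 1311 genes raised by at least 1 (4.88%). An outlier mark on a spot or its background on any of the 6 arrays was found for 3 of 10 (30.0%) and 73 of 1311 (5.57%). The arrays of 250 mM sorbitol were all above those of ATS media for 5 of 10 genes, for 95.2% of the 1311, and for 44.7% of all genes tested. Genes just short of the limit, raised by 0.8 to 1 and flat at lower doses, numbered 28, of which 27 did not overlap and 1 spanned 1 log2 unit. Bright on all 6 arrays, unmarked, tight and not overlapping were 2 of the 10 genes (20%), 22 of these 28 (78.6%) and 669 of the 1311 (51.0%). Since means at 250 mM sorbitol chose all of these sets, the shares are descriptions.

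**Figure D4:**
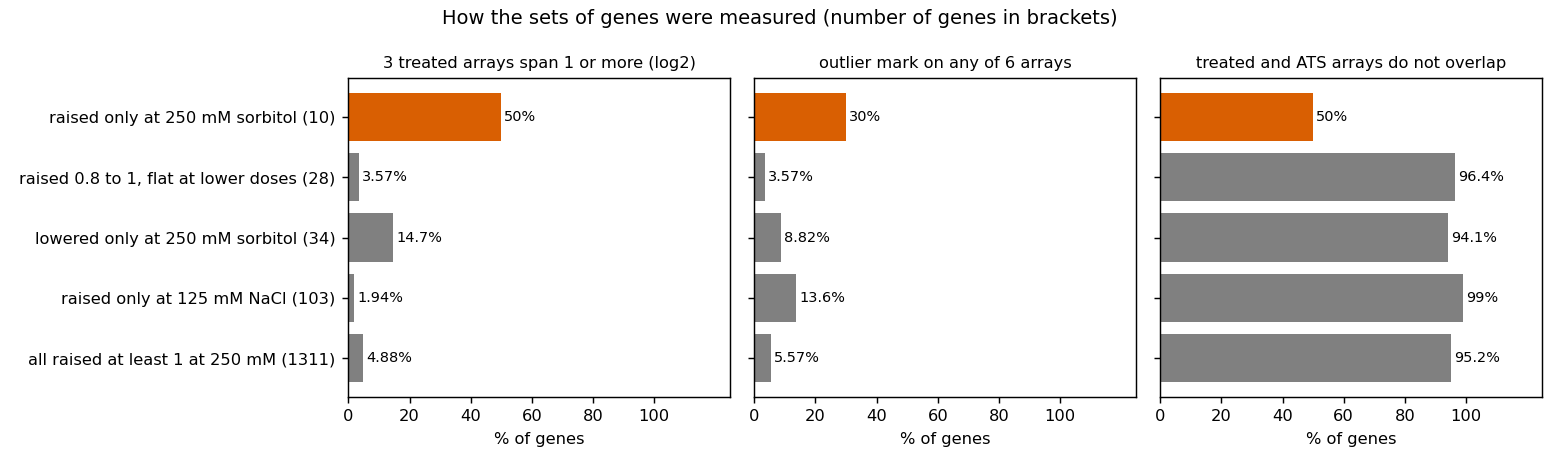
Share of genes in each set whose 3 treated arrays spanned 1 log2 unit or more, that carried an outlier mark on the spot or its background on any of 6 arrays, or whose treated and ATS media arrays did not overlap; treated arrays are 125 mM NaCl for the set named so and 250 mM sorbitol for the rest. The 10 genes had the highest share of wide spread (50.0%) and of marks (30.0%) among the 5 sets and the lowest share without overlap (50.0%).

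The mirrored rule, lowered by at least 1 at 250 mM sorbitol only, found 34 genes, and the same rule on the NaCl doses, raised at 125 mM only, found 103. None of the 10 genes was among those 103. Just below the rise stood AT2G12190 at 0.99, VAMP712, a gene for a vesicle membrane protein, at 0.98, and AT3G25260 at 0.97 log2 units. AT2G12190 was bright and even, with 1478.7, 1416.4 and 1465.7 at 250 mM sorbitol against 727.3, 735.2 and 728.6 on ATS media. Just outside the window stood GLR2.2, a glutamate receptor homolog, at 0.42 on 150 mM sorbitol, AT1G52100 at 0.43 on 200 mM and AT3G46270 at -0.44 on 100 mM, with rises of 1.09, 1.04 and 1.55 at 250 mM. Of the 20 genes that flank the 10 on the chromosomes, 10 were tested and 1, AT5G35380 next to AT5G35375, was raised by at least 1 (1.11 at 250 mM sorbitol and 0.74 at 200 mM). None of the 10 genes was among the 330 genes of 20 stress, hormone, nutrient and tissue lists.

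The chromatin relatives of WDR5b and SDG21 did not share a rise of 1 at 250 mM sorbitol. Of 10 COMPASS-type genes 9 were tested, where 36.1% of all genes were higher and 30.5% lower, with 3 higher (ATX2 by 0.25, ATX5 by 0.20 and RBL by 0.16 log2 units) and 3 lower (ATX4 at -0.34, ATX1 at -0.31 and ATXR3 at -0.29). ATX1 to ATX5 and ATXR3 are histone H3 methyltransferase genes, and RBL is a homolog of the RbBP5 subunit. WDR5a, the closest relative of WDR5b, gave 1706.7, 1766.8 and 1720.7 at 250 mM sorbitol and 1921.3, 1857.5 and 1796.6 on ATS media, and did not pass the test. Of 9 other SU(VAR)3-9 homologs 7 were tested, with SUVH5 (0.65), SUVH1 (0.39), SUVH3 (0.35) and SUVH6 (0.22) higher and SUVH9 (-0.24) lower. Counts of 3 in 9 for the COMPASS-type genes lay close to the shares of all genes. These relatives were chosen once the 10 genes were known.

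The differences at NaCl were not part of the rule, so NaCl allowed a test of single genes. The 3 ATS media arrays served both, and SDG21 and AT5G35375 were among the genes tested only because they were detected on all 3 arrays of 125 mM NaCl, which leaves their values there a description. In limma, fitted to all 27 arrays with adjustment over 21509 genes, 2 of 10 genes were higher at 125 mM NaCl and 0 were lower, where 32.3% of all genes were higher and 37.8% lower. As shares of 10, both counts were below those of all genes. They are no result about the set, because the spread at the top sorbitol dose enters every NaCl comparison. There 50.0% of the 10 genes spanned 1 log2 unit or more, against 4.88% of the genes raised there by at least 1. The counts also take in SDG21 and AT5G35375, whose values are a description. At 50, 75 and 100 mM NaCl 0 of 10 genes passed the test in either direction, where 26.8, 24.1 and 29.2% of all genes were higher and 19.7, 20.1 and 30.2% lower. For AT3G47540 the SE of 0.24 took in an SD of 0.61 and 0.66 at 150 and 200 mM sorbitol, against 0.02 at 50 mM NaCl. A count of 0 therefore does not show that AT3G47540 was unchanged at these NaCl doses.

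The 2 that passed were AT3G47540 and AT2G07750, whose spots at 250 mM sorbitol were clean. Spread at 250 mM sorbitol enters the SE of every NaCl comparison, so that match is partly built into the fit. AT3G47540 gave 592.3, 615.2 and 626.9 on ATS media, 820.3, 837.7 and 831.5 at 50 mM NaCl, 700.1, 672.5 and 718.1 at 75 mM, 760.4, 783.6 and 810.6 at 100 mM, and 1156.1, 1123.5 and 1235.0 at 125 mM. It was above every ATS media array at each NaCl dose, and its order did not follow the dose, since 50 mM lay above 75 and 100 mM. At 125 mM NaCl it was higher than ATS media by 0.94 log2 units (SE 0.24, limma adjusted p = 0.00136). AT2G07750 gave 243.2, 287.0 and 274.0 at 50 mM NaCl, 235.1, 278.7 and 275.2 at 75 mM, 266.3, 265.8 and 268.0 at 100 mM, and 424.3, 427.4 and 446.8 at 125 mM. It overlapped ATS media up to 100 mM NaCl and was higher at 125 mM by 0.70 log2 units (SE 0.13, limma adjusted p = 6.07e-05). Both were thus highest at the top dose of NaCl as of sorbitol, at differences of 0.94 and 0.70 on 125 mM NaCl beside 1.805 and 1.00 on 250 mM sorbitol, which share the ATS media arrays. The 125 mM NaCl arrays shared no slide with ATS media, so slide and treatment cannot be told apart in this comparison, with a random block for slide either. With that block both genes passed, AT3G47540 at 0.73 (limma adjusted p = 0.00424) and AT2G07750 at 0.57 log2 units (limma adjusted p = 0.000903).

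Among the dim genes, AT5G15420 did not pass the test at 125 mM NaCl (limma adjusted p = 0.0418), and its ATS media signal was above background on 1 of 3 arrays, so its difference of 1.52 log2 units is measured against values at the detection limit. The differences of AT5G35375 (1.32) and SDG21 (1.096) at 125 mM NaCl are likewise uncertain in size. SDG21 gave 17.8, 24.5 and 25.2 at 125 mM NaCl, all well above background, and 16.7, 4.8 and 14.2 on ATS media, where no array was. Its mean at 125 mM NaCl did not exceed the lowest detectable signal on ATS media, so no bound could be given for a rise. AT5G35375 gave 27.4, 54.4 and 32.9, and AT5G15420 gave 47.2, 49.9 and 30.5. Beside these differences stood 1.02 for AT5G15420, 1.05 for AT5G35375 and 1.11 for SDG21 at 250 mM sorbitol. AT5G35380, next to AT5G35375, had a difference of 2.15 at 125 mM NaCl.

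The difference between 125 and 50 mM NaCl held no array whose values the rule used. It did hold the 125 mM NaCl arrays by which SDG21 and AT5G35375 passed the filter on detection. Its SE came from all 27 arrays, those behind the choice among them, so the test is not independent of the choice. AT2G07750 was higher by 0.69 log2 units (SE 0.13, limma adjusted p = 7.54e-05) and was the only 1 of 10 to pass, with 0 lower, where 27.4% of all genes were higher and 40.5% lower. AT3G47540 had a difference of 0.50 log2 units and did not pass (limma adjusted p = 0.0662). Between 100 and 50 mM NaCl 0 of 10 genes passed, where 21.9% of all genes were higher and 30.9% lower. The 100 mM sorbitol arrays were used in the choice and lay on the same slides as the 125 mM NaCl arrays. Set against them, AT3G47540 was higher at 125 mM NaCl by 0.86 log2 units (SE 0.24, limma adjusted p = 0.00324), the only 1 of 10 to pass, where 28.4% of all genes were higher and 33.9% lower. With slide as a fixed block AT3G47540 was higher too (limma adjusted p = 1.44e-05), as were WDR5b and AT2G07750, and AT5G62960 was lower. AT5G35375 was also called higher there, but it was tested only because of its 125 mM NaCl arrays, which leaves that call a description. The shares above are not those of the blocked fit, so no count is set beside them. Without the block, the AT3G47540 call was lost without replicate 3 of either group (limma adjusted p = 0.0126 without the NaCl array and 0.0121 without the sorbitol array).

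**Figure D5:**
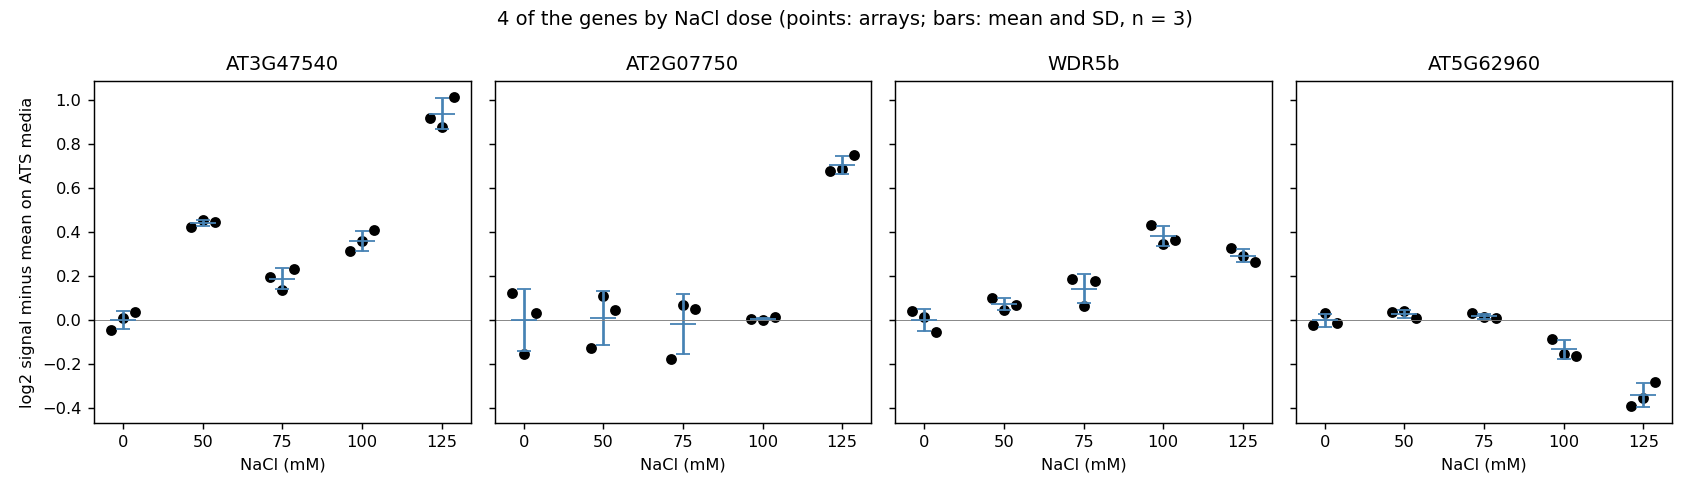
Log2 signal minus the ATS media mean for 4 of the genes at 0, 50, 75, 100 and 125 mM NaCl; points are arrays and bars the mean and SD of 3. AT3G47540 and AT2G07750 stand highest at 125 mM (0.94 and 0.70), WDR5b stands at 0.38 and 0.29 at 100 and 125 mM, and AT5G62960 falls below 0 at these doses (-0.13 and -0.34).

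The single high spots of WDR5b and AT5G62960 also set what the test could see at NaCl, since all groups share 1 estimate of the spread. WDR5b gave 2276.1, 2232.4 and 2127.3 on ATS media, 2368.5, 2284.3 and 2321.9 at 50 mM NaCl, 2514.4, 2313.6 and 2500.6 at 75 mM, 2982.4, 2805.4 and 2848.8 at 100 mM, and 2770.2, 2706.0 and 2653.2 at 125 mM. Every NaCl array was above every ATS media array. The difference at 125 mM NaCl was 0.29 log2 units, with an SE of 1.13 when array 1 of 250 mM sorbitol was in the fit (limma adjusted p = 0.822). Without that array the SE was 0.05, and WDR5b was higher at 100 mM (0.38, limma adjusted p = 1.94e-06) and at 125 mM NaCl (0.29, limma adjusted p = 3.48e-05). It was also higher at 125 than at 50 mM NaCl by 0.22 log2 units (limma adjusted p = 0.000687).

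AT5G62960 gave 1039.8, 1081.2 and 1047.8 on ATS media, 1082.8, 1086.1 and 1061.6 at 50 mM NaCl, 1078.5, 1066.6 and 1062.8 at 75 mM, 996.2, 950.1 and 944.4 at 100 mM, and 807.1, 826.4 and 868.5 at 125 mM. Without array 3 of 250 mM sorbitol it was lower at 125 mM NaCl, at -0.34 log2 units (SE 0.03, limma adjusted p = 2.62e-08), and at 100 mM, at -0.13 (limma adjusted p = 0.00219), where with that array it did not pass (limma adjusted p = 0.609 at 125 mM). Its other probe gave -0.33 and -0.15 at these doses. A fit to the 15 NaCl and ATS media arrays alone was chosen after the data were seen. In it WDR5b, AT3G47540 and AT2G07750 were higher at 125 mM NaCl, and AT5G62960 was lower. The share of all genes called in that fit is not given here, so these are calls of single genes. AT3G47540 was there also higher at 50 mM (0.44, limma adjusted p = 7.17e-07), 75 mM (0.19, limma adjusted p = 0.000974) and 100 mM NaCl (0.36, limma adjusted p = 2.89e-06). With 3 arrays a group, and labels that do not say whether these came from separate plates or extractions, p-values measure only the spread between these arrays.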

How the data were processed

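The authors deposited, for each of 27 Agilent arrays, spot intensities from the scanner software Feature Extraction 10.7 and its 0 or 1 marks for spots well above background, saturated or outlying. They also deposited an intensity table on a linear scale, whose values matched the quantile-normalized processed intensity to within 0.1%, except 2 of 1182681 (largest difference 0.173%). That table was taken to log2. The processed signal is background-subtracted and detrended by the software.

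Spots were matched to loci by transcript accession through a RefSeq gene table (34369 of 43803 spots, 25383 loci); the 9434 unmatched spots stay unnamed. Where several probes matched a gene, the one brightest on average stood for it. Outlier marks (530 spot values, 0.0448%) were kept in the main values and masked in an alternative, and 0 values were saturated. The rule for named genes (up to 15 members by rise, those called at NaCl, and 5 on either side of the limit of 1) took in the whole set; genes just outside the window, flanking genes and chromatin relatives were chosen after values were seen. Members and gene lists were chosen with earlier results of these data known, some lists by an earlier analysis.

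limma 3.58.1 (R 4.3.3) fitted 9 group means to 27 arrays, with two-sided p-values adjusted by Benjamini-Hochberg over 21509 genes and calls under 0.01, the threshold of the study's methods; 7 comparisons with NaCl were tested for the set. The methods' Mann-Whitney test pools doses and was not used. The script was checked on simulated data. Other steps used Python 3.11.15 with numpy 2.4.6, pandas 2.3.3 and matplotlib 3.10.9. The number of arrays limits the precision. Alternatives were other scalings, normexp (offset 50) on median pixels, no filter on dim probes, masking, probe means, slide and replicate blocks, other limits and leaving out each array.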

Additional observations from a re-analysis of the deposited data

How the results depend on the processing

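The rule found 10 genes, 38 with a rise of at least 0.8, 6 with at least 1.2, 6 with a window of 0.3, 20 with one of 0.5, 3 when each array had to be 1 above, 5 when genes had to be above background at 250 mM sorbitol and on ATS media, and 4 to 13 when any 1 array was left out (4, 6 and 8 without ATS media replicate 1, 2 or 3, of which 4, 3 and 4 were among the 10). AT5G27300 remained in all 27 such runs, WDR5b and AT5G62960 in 26 each, AT3G47540 in 23, AT2G07750 in 19 and the other 5 genes in 17 to 23. Of the 10 genes, 3 remained among 8 found under normexp, 6 among 9 with the 75th percentile as scale, 8 among 8 with marked spots masked, and 2 among 11 by the median of 3 arrays, added later. The median rise of the set, 1.29, was 0.40 under normexp.

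The counts here and below show how far the calls moved between settings and are no result about the set. The shares of all genes called in these fits are not given. In the main fit 19.7 to 40.5% of all genes were called per direction across these comparisons. Left-out arrays gave 2 to 3 members higher and 0 to 1 lower at 125 mM NaCl against ATS media. They gave 1 to 2 and 0 to 1 against 50 mM NaCl, and 0 to 2 and 0 to 1 against 100 mM sorbitol. The count against 50 mM NaCl was 2 without ATS media replicate 1 or 2 or 250 mM sorbitol replicate 1, and that against 100 mM sorbitol was 2 without ATS media replicate 2, 200 mM sorbitol replicate 1 or 250 mM sorbitol replicate 1. At 100 mM NaCl they gave 0 to 1 higher and 0 to 1 lower, against ATS media and against 50 mM NaCl alike.

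In the fit to NaCl and ATS media arrays, added later, 1, 2 and 2 members were higher than ATS media at 50, 75 and 100 mM NaCl and 1 was lower at 100 and at 125 mM. There 125 mM gave 3 higher and 1 lower than 50 mM, and 100 mM gave 1 higher and 1 lower. The slides allow a fixed block only for some comparisons. With it, 1, 1 and 2 members were higher than ATS media at 50, 75 and 100 mM NaCl. At 100 against 50 mM, 1 was higher and 1 lower. At 125 mM NaCl against 100 mM sorbitol, 4 were higher and 1 lower (WDR5b, AT3G47540, AT5G35375 and AT2G07750 higher, AT5G62960 lower). Of these, AT5G35375 was tested only because of its 125 mM NaCl arrays. Slide as a random block gave 1 higher at 50 mM NaCl and 2 at 125 mM NaCl against 100 mM sorbitol. Masking marked spots gave 1 lower at 100 mM and 2 lower at 125 mM NaCl than on ATS media (AT5G27300 and AT5G62960), 1 lower at 125 and 1 lower at 100 than at 50 mM NaCl, and 1 lower at 125 mM NaCl than at 100 mM sorbitol. An adjusted p under 0.05 gave 2 higher at 125 than at 50 mM NaCl and 2 higher than at 100 mM sorbitol, and the 75th percentile as scale gave 2 higher at 125 than at 50 mM. The cause of these shifts was not tested. No direction was reversed.

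Replicate numbers did not pair the arrays: of 21 correlations of deviations, 4 were over 0.1 (-0.03 to 0.20). With slide as a random block, the estimated correlation within a slide was 0.51, whereas the main fit treats arrays as independent. With replicate as a block, 2 members were higher at 125 mM NaCl than on ATS media, 1 than at 50 mM NaCl and 1 than at 100 mM sorbitol, as without it. Dim signal limits 5 of the 10 genes.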
